A study of Homo sapiens with 3 samples.

Results

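The transfer RNAs (tRNAs) that carry the small and aliphatic amino acids alanine, glycine, valine, proline, threonine and isoleucine were examined in a DDX6 eCLIP experiment. The members are all counted tRNA genes whose name gives 1 of these 6 amino acids, with or without the prefix nmt-. A gene entered by its name and not by its values, although the group was chosen with earlier results of these data known. There were 143 of them among 434 tRNA names and 36817 counted identifiers. Names follow the pattern amino acid, anticodon, isodecoder number and copy number, so that tRNA-Gly-CCC-2-1 and tRNA-Gly-CCC-2-2 are copies of 1 isodecoder, a group of genes given the same mature sequence by that naming. The members belonged to 20 anticodon names, and 129 of the 143 matched a tRNA gene in RefSeq by name.

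A tRNA is charged with its amino acid by an aminoacyl-tRNA synthetase and reads a codon of an mRNA in the ribosome through its anticodon. Several anticodons serve the same amino acid, and each anticodon is encoded by many scattered gene copies that are transcribed by RNA polymerase III, trimmed at both ends and heavily modified. In the tRNAs of alanine, valine, proline, threonine and isoleucine whose anticodon is encoded with adenosine in its first position, this base is converted to inosine by the deaminase ADAT2/ADAT3. DDX6 is an RNA helicase known for translational repression, for mRNA decapping and for the assembly of P-bodies, granules in the cytoplasm where translationally silent mRNAs gather.

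All libraries came from MOLM-13, a human acute myeloid leukaemia cell line, grown without a further treatment named in the labels. The eCLIP procedure fixed RNA to protein with ultraviolet light, cut it with RNase I, pulled the complexes down with an antibody and sequenced their RNA after gel separation. The compared groups were 2 immunoprecipitation (IP) libraries made with an antibody to DDX6, and 1 input library for which the labels list no antibody. No sample without DDX6 was analysed here, so RNA that the antibody or the beads recover without DDX6 is part of every IP value. A higher or lower IP share can come from the number of bound molecules or from how well they cross-link, which cannot be told apart.

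Depth differed between the libraries: the first IP replicate had 4643494 counted reads, the other one 1244213, and the input 7807540. Reads in the tRNA column numbered 119104, 64406 and 93013, which was 2.56%, 5.18% and 1.19% of the counted reads. The labels do not say whether the IP libraries were made from separate cultures, and the p-values reflect only how far these 2 libraries differ, possibly for technical reasons. The single input was assumed to vary as the IP libraries do. Of 10 myeloid leukaemia markers, 8 had at least 10 exonic reads in the input, against 0 of 5 lymphoid and erythroid markers, of which 2 were matched. Among the myeloid ones CD34 was not matched and KIT had 0 input reads. Of 3 other markers (EPCAM, KRT8 and COL1A1), 2 were matched, and 1 reached that level, COL1A1 with 27 input reads.

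The 143 member tRNAs took a smaller share of the tRNA reads after DDX6 immunoprecipitation than in the input, and their make-up differed. Threonine tRNAs took a larger share, proline and valine tRNAs a smaller one, and the sums for alanine and glycine lay closer to the input. IP replicate 1 had 27484 member reads, IP replicate 2 had 17175 and the input had 28463. This was 23.1% (95% exact Clopper-Pearson interval 22.8 to 23.3), 26.7% (26.3 to 27.0) and 30.6% (30.3 to 30.9) of the tRNA reads. Both IP shares were below the input share, with an IP mean of 24.9% ± 2.54 (SD, n = 2). This difference was not tested. As a share of all counted reads, intronic ones included, the members took more in the IP libraries, at 0.592% and 1.38% against 0.365% in the input. Intronic reads made up 25.8% and 28.5% of the IP libraries and 65.5% of the input, which enters this comparison. Against exonic RNA, the median log2 fold of the tested member genes was -1.17 in IP replicate 1 and 0.12 in IP replicate 2. All intervals cover counting error only.

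Among the other tRNAs, those for the basic amino acids arginine, lysine and histidine took 44.4% and 36.2% of the tRNA reads in the IP libraries and 14.2% in the input. The 3 remaining amino acid groups had lower shares in both IP libraries than in the input, as the members did. Those for aspartate, glutamate and their amides took 12.1% and 11.3% against 18.0%. Leucine, serine and selenocysteine tRNAs took 11.0% and 15.9% against 22.0%, and methionine, aromatic and cysteine tRNAs 9.24% and 9.62% against 15.2%. Shares of the tRNA reads are parts of a fixed total, so a larger share of the basic tRNAs lowers those of the rest. The smaller share of the members is therefore relative, and the part of this in it was not tested.

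**Figure D1:**
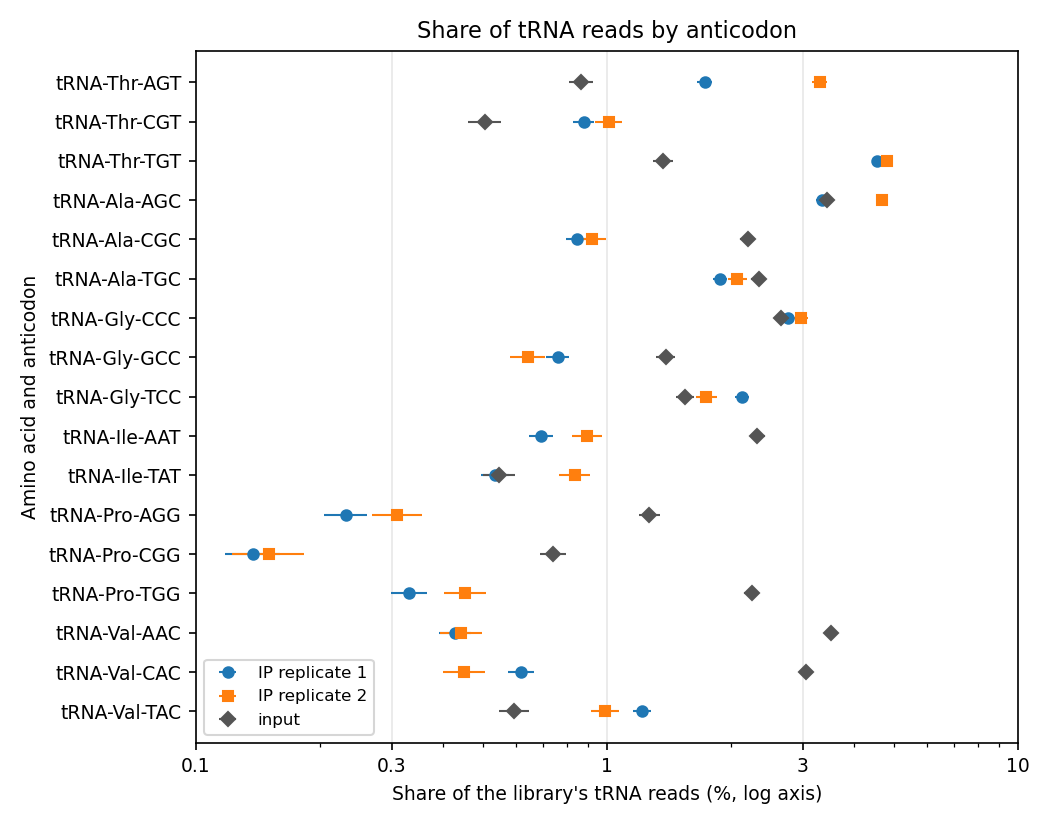
Share of each library's tRNA reads (%, log axis) taken by each of the 17 tested member anticodons in IP replicate 1 (circles), IP replicate 2 (squares) and the input (diamonds), with 95% exact binomial intervals for counting error. The 3 threonine anticodons lie to the right of the input in both IP libraries, and the 3 proline anticodons, tRNA-Val-AAC and tRNA-Val-CAC lie to its left.

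Of the 6 amino acids, threonine had the highest share after immunoprecipitation. The 21 genes together took 7.16% of the tRNA reads in IP replicate 1, 9.11% in IP replicate 2 and 2.74% in the input. Summed by amino acid and set against exonic RNA, threonine tRNAs rose 4.18-fold (log2 fold 2.07 ± 0.59, SE; edgeR quasi-likelihood test, Benjamini-Hochberg adjusted p = 0.0100). The rise was larger in IP replicate 2, at a log2 fold of 2.62, than in IP replicate 1, at 1.15. Of the 6 amino acids, this was the only sum called higher, where 14.6% of all 10415 tested features were called higher and 11.9% lower. The calls on amino acid sums, here and for valine and proline, rest on edgeR with this scaling and filter: DESeq2 called none of the 6 sums, where it called 8.05% of all features higher and 2.85% lower, and with a minimum of 10 input reads edgeR called none either, against 9.28% and 7.43%.

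tRNA-Thr-TGT, the threonine tRNA with most reads, took 4.55% of the tRNA reads in IP replicate 1 (5418 reads), 4.81% in IP replicate 2 (3099 reads) and 1.37% in the input (1275 reads). Both IP libraries lay far above the input and close to each other. Relative to the other tRNAs it rose by a log2 fold of 1.74 ± 0.38 (SE; edgeR adjusted p = 0.0105), with single-library values of 1.73 and 1.76. tRNA-Thr-AGT, whose anticodon starts with the adenosine that becomes inosine, took 1.73% (2061 reads), 3.29% (2121 reads) and 0.865% (805 reads). It rose by 1.50 ± 0.45 on the same scale (edgeR adjusted p = 0.0270), and the IP libraries differed more for it, by 0.88 log2 units. tRNA-Thr-CGT took 0.877% (1045 reads), 1.01% (650 reads) and 0.504% (469 reads). Its share was higher in both IP libraries than in the input, and its log2 fold of 0.87 ± 0.50 relative to the other tRNAs was not called (edgeR adjusted p = 0.216).

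The sums of valine tRNAs split by anticodon, and single genes within an anticodon differed as well, as described further on. Together the 29 genes took 2.26% and 1.88% of the tRNA reads in the IP libraries and 7.15% in the input, and against exonic RNA they fell 2.65-fold (log2 fold -1.41 ± 0.41, SE; edgeR adjusted p = 0.0122). The single-library values of this sum were -1.89 in IP replicate 1 and -1.03 in IP replicate 2. tRNA-Val-AAC, the inosine-forming valine tRNA, took 0.427% (509 reads) in IP replicate 1, 0.443% (285 reads) in IP replicate 2 and 3.51% (3264 reads) in the input. The IP libraries gave nearly the same share, far below that of the input. Relative to the other tRNAs it was 8.22-fold lower (log2 fold -3.04 ± 0.33, SE; edgeR adjusted p = 0.00230), at -3.03 in either IP library. tRNA-Val-CAC took 0.620% (738 reads), 0.450% (290 reads) and 3.05% (2835 reads), and was 5.78-fold lower (log2 fold -2.53 ± 0.38; edgeR adjusted p = 0.00396).

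tRNA-Val-TAC, the third valine anticodon, lay on the other side of the input. It took 1.22% (1449 reads), 0.992% (639 reads) and 0.593% (552 reads) of the tRNA reads. Its log2 fold relative to the other tRNAs was 0.87 ± 0.48 and was not called (edgeR adjusted p = 0.197), whereas against exonic RNA it rose by 1.26 ± 0.36 (edgeR adjusted p = 0.0139). For each read of tRNA-Val-AAC there were 2.85 and 2.24 reads of tRNA-Val-TAC in the IP libraries and 0.169 in the input. The difference in fold between valine anticodons was not tested by itself.

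Proline tRNAs were lower for every anticodon. The 21 genes took 0.700% and 0.911% of the tRNA reads in the IP libraries and 4.26% in the input, and fell 3.78-fold against exonic RNA (log2 fold -1.92 ± 0.41, SE; edgeR adjusted p = 0.000908). The fall of the sum was deeper in IP replicate 1, at -2.84, than in IP replicate 2, at -1.33. tRNA-Pro-TGG took 0.331% (394 reads), 0.452% (291 reads) and 2.25% (2094 reads), and was 5.89-fold lower relative to the other tRNAs (log2 fold -2.56 ± 0.43; edgeR adjusted p = 0.00630). tRNA-Pro-AGG, the inosine-forming one, took 0.232% (276 reads), 0.309% (199 reads) and 1.27% (1181 reads), with a log2 fold of -2.26 ± 0.53 (edgeR adjusted p = 0.0118). tRNA-Pro-CGG took 0.138% (164 reads), 0.151% (97 reads) and 0.740% (688 reads), with a log2 fold of -2.39 ± 0.63 (edgeR adjusted p = 0.0172). For all 3 anticodons both IP libraries lay below the input, with single-library log2 folds from -2.76 to -2.08. Threonine tRNAs had 10.2 and 10 reads for each proline tRNA read in the IP libraries, and 0.643 in the input.

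Alanine tRNAs came next to threonine tRNAs in their share of the IP reads. The 30 genes took 6.08% and 7.68% of the tRNA reads, against 7.98% in the input, and against exonic RNA the sum had a log2 fold of 0.28 ± 0.54 (edgeR adjusted p = 0.744), at -0.63 in IP replicate 1 and 0.83 in IP replicate 2. tRNA-Ala-AGC, the inosine-forming alanine tRNA, took 3.33% (3970 reads), 4.68% (3014 reads) and 3.43% (3195 reads), so that the input lay between the IP libraries. tRNA-Ala-TGC took 1.88% (2244 reads), 2.08% (1338 reads) and 2.34% (2180 reads). Neither passed the test relative to the other tRNAs, at log2 folds of 0.19 ± 0.39 and -0.27 ± 0.30. tRNA-Ala-CGC took 0.847% (1009 reads), 0.919% (592 reads) and 2.20% (2048 reads), with both IP libraries below the input. It was 2.54-fold lower (log2 fold -1.35 ± 0.35; edgeR adjusted p = 0.0172).

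Glycine tRNAs, which have 22 genes and no inosine-forming anticodon among the members, took 5.65% and 5.35% of the tRNA reads in the IP libraries and 5.60% in the input. Their sum had a log2 fold of 0.39 ± 0.49 against exonic RNA (edgeR adjusted p = 0.590), at -0.22 and 0.82 in the single IP libraries. tRNA-Gly-CCC took 2.76% (3285 reads), 2.96% (1907 reads) and 2.66% (2474 reads), which is nearly the same share in all 3 libraries. The single genes behind this sum differed far more, as described further on. tRNA-Gly-TCC took 2.14% (2543 reads), 1.75% (1125 reads) and 1.55% (1443 reads), and tRNA-Gly-GCC took 0.760% (905 reads), 0.641% (413 reads) and 1.39% (1292 reads). No glycine anticodon passed the test relative to the other tRNAs, with log2 folds of 0.08 ± 0.31 for tRNA-Gly-CCC, 0.30 ± 0.33 for tRNA-Gly-TCC and -1.01 ± 0.44 for tRNA-Gly-GCC (edgeR adjusted p = 0.845, 0.516 and 0.108).

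In the input, only threonine tRNAs took a smaller share of the reads than isoleucine tRNAs. The 19 isoleucine genes took 1.23%, 1.73% and 2.87% of the tRNA reads, with a log2 fold against exonic RNA of -0.44 ± 0.43 (edgeR adjusted p = 0.484), and the IP libraries gave -1.46 and 0.16. tRNA-Ile-AAT, the inosine-forming one, took 0.691% (823 reads), 0.896% (577 reads) and 2.32% (2159 reads), and was 2.99-fold lower relative to the other tRNAs (log2 fold -1.58 ± 0.37; edgeR adjusted p = 0.0118). tRNA-Ile-TAT, whose genes carry an intron, took 0.534% (636 reads), 0.835% (538 reads) and 0.547% (509 reads), with a log2 fold of 0.29 ± 0.57 (edgeR adjusted p = 0.714). The input value of tRNA-Ile-TAT lay between the IP values, and that of tRNA-Ile-AAT above both.

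The inosine-forming anticodons did not move as a group. Relative to the other tRNAs, tRNA-Thr-AGT rose, tRNA-Val-AAC, tRNA-Pro-AGG and tRNA-Ile-AAT fell, and tRNA-Ala-AGC was not called. Of the 17 member anticodons with enough reads to test, 2 were called higher, 7 lower and 8 were not called. Over all 49 tested anticodons of any amino acid, 18.4% were called higher and 32.7% lower, so that the members' 7 of 17 lower calls lay near that background. The median log2 fold was -0.27 over the members and 0.20 over all 49. Of the 32 other anticodons, 7 were called higher and 9 lower. The difference between members and other anticodons was not tested.

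**Figure D2:**
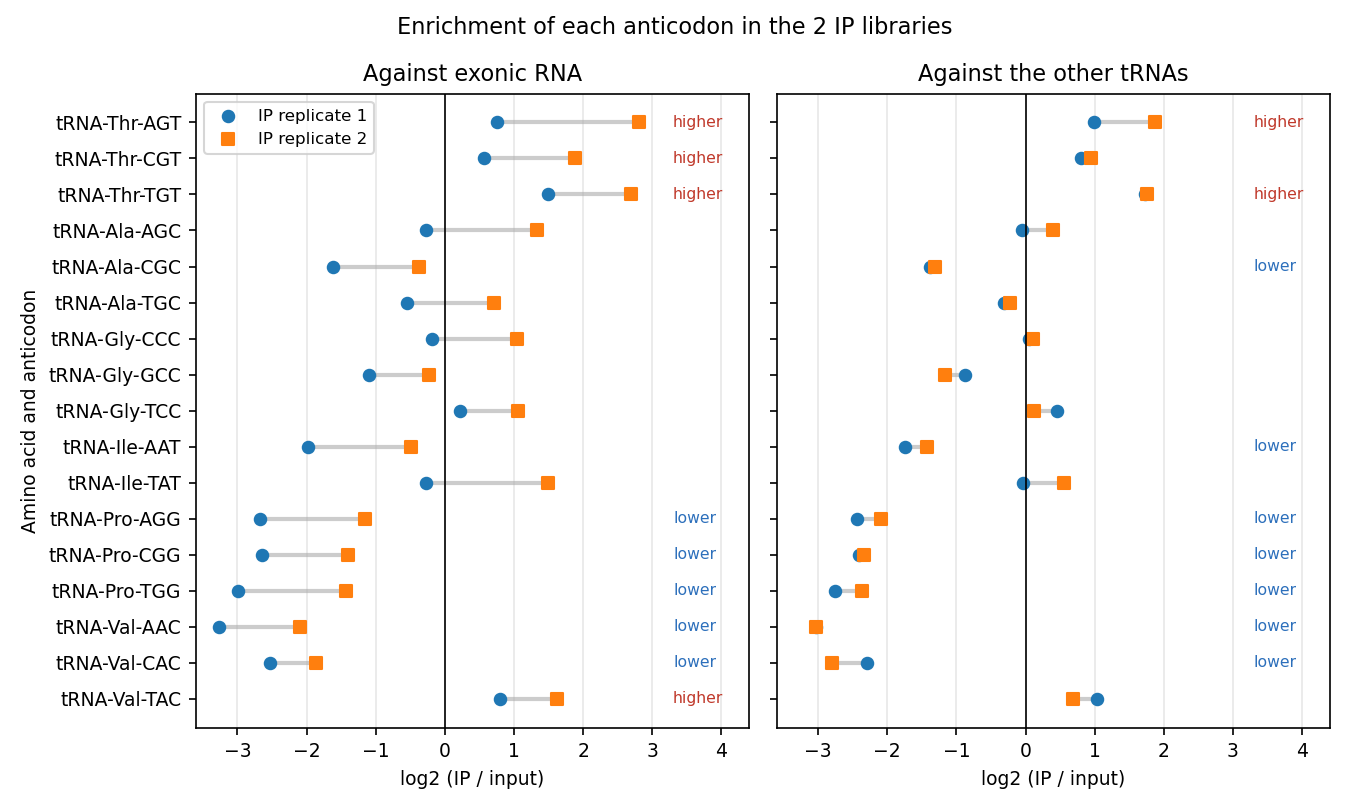
Log2 fold of IP over input for the 17 tested member anticodons in each IP library, against exonic RNA (left) and against the other tRNAs (right), with the edgeR call beside each. The IP libraries lie apart on the left, where IP replicate 2 is higher for all 17 anticodons, and close together on the right.

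Against exonic RNA, 4 member anticodons were called higher and 5 lower, where 14.0% of 10441 tested features were called higher and 11.4% lower. The called anticodons were the 3 of threonine and tRNA-Val-TAC on the higher side, and the 3 of proline with tRNA-Val-AAC and tRNA-Val-CAC on the lower side. On this scale tRNA-Thr-TGT rose 4.65-fold, tRNA-Thr-AGT 4.35-fold, tRNA-Thr-CGT 2.56-fold and tRNA-Val-TAC 2.40-fold (edgeR adjusted p = 0.00400, 0.0121, 0.0194 and 0.0139). tRNA-Val-AAC fell 6.04-fold, tRNA-Val-CAC 4.53-fold, tRNA-Pro-TGG 4.14-fold, tRNA-Pro-CGG 4.06-fold and tRNA-Pro-AGG 3.47-fold (edgeR adjusted p = 6.36e-05, 9.54e-05, 0.000923, 0.000130 and 0.00143). Every called anticodon had the same sign in both IP libraries, but the sizes differed. In IP replicates 1 and 2, the log2 fold was 1.49 and 2.70 for tRNA-Thr-TGT, 0.76 and 2.81 for tRNA-Thr-AGT, 0.56 and 1.88 for tRNA-Thr-CGT and 0.80 and 1.63 for tRNA-Val-TAC. On the lower side it was -3.27 and -2.10 for tRNA-Val-AAC, -2.53 and -1.87 for tRNA-Val-CAC, -2.99 and -1.43 for tRNA-Pro-TGG, -2.64 and -1.40 for tRNA-Pro-CGG and -2.68 and -1.15 for tRNA-Pro-AGG.

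The level of all tRNAs together differed between the IP libraries on this scale. IP replicate 2 had the higher log2 fold for all 17 member anticodons, by a median of 1.24 and between 0.66 and 2.05, and it was also the IP library with fewer reads and with more of them in tRNAs. Relative to the other tRNAs the median difference was 0.08, between -0.51 and 0.88. Both IP folds use the same input, so an error of the input moves them together. The calls against exonic RNA depended on the processing: DESeq2 called only tRNA-Val-TAC higher and tRNA-Val-CAC lower, where it called 6.53% of all features higher and 2.29% lower. With a minimum of 10 input reads edgeR called 0 member anticodons higher and 3 lower, against 7.55% and 5.83% of all features. With scaling to all counted reads, intronic ones included, the median log2 fold of the member anticodons moved from 0.21 to 1.48 and that of all features from -0.06 to 1.24, 9 were called higher and 4 lower where 67.0% of all features were called higher and 1.37% lower, and tRNA-Ala-CGC, tRNA-Gly-GCC and tRNA-Ile-AAT changed sign without a call.

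Single genes differed far more than their sums. Relative to the other tRNA genes, 25 of the 111 tested member genes were called higher, 43 lower and 43 not called, where 30.5% of the 308 tested tRNA genes were called higher and 32.5% lower (edgeR). The median log2 fold was -0.60 over the tested members and -0.18 over all 308 genes. Among the 197 other tRNA genes 69 were called higher and 57 lower, and the difference from the members was not tested. The 2 IP libraries differed by less than 1 log2 unit for 103 of the 111 members. The fit relative to the other tRNA genes was added after the values had been seen, and its spread was taken as common to all genes. The number of higher calls depended on the scaling and was smaller with scaling to total tRNA reads, as given in the closing section.

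When single genes were set against exonic RNA, no member passed the test at an adjusted p under 0.05, and nor did any of the 10700 features in that fit (0.0% called higher and 0.0% lower). The smallest adjusted p was 0.0805 (edgeR). At an unadjusted p under 0.05 there were 16 members on the higher and 38 on the lower side, and of all 10700 features 15.6% lay on the higher and 14.0% on the lower side. DESeq2 called 14 members higher and 23 lower, with no adjusted p for 12, where 5.33% of the 8833 features with an adjusted p were called higher and 2.16% lower. With a robust prior for the spread, also added after the values had been seen, edgeR called 9 members higher and 31 lower, where 11.5% and 9.03% of all features were called. The genes named below are described relative to the other tRNA genes, and none of their values against exonic RNA passed the edgeR test without the robust prior. DESeq2 called 24 members higher and 31 lower on that scale, against 29.5% and 22.4% of all 308 tRNA genes.

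**Figure D3:**
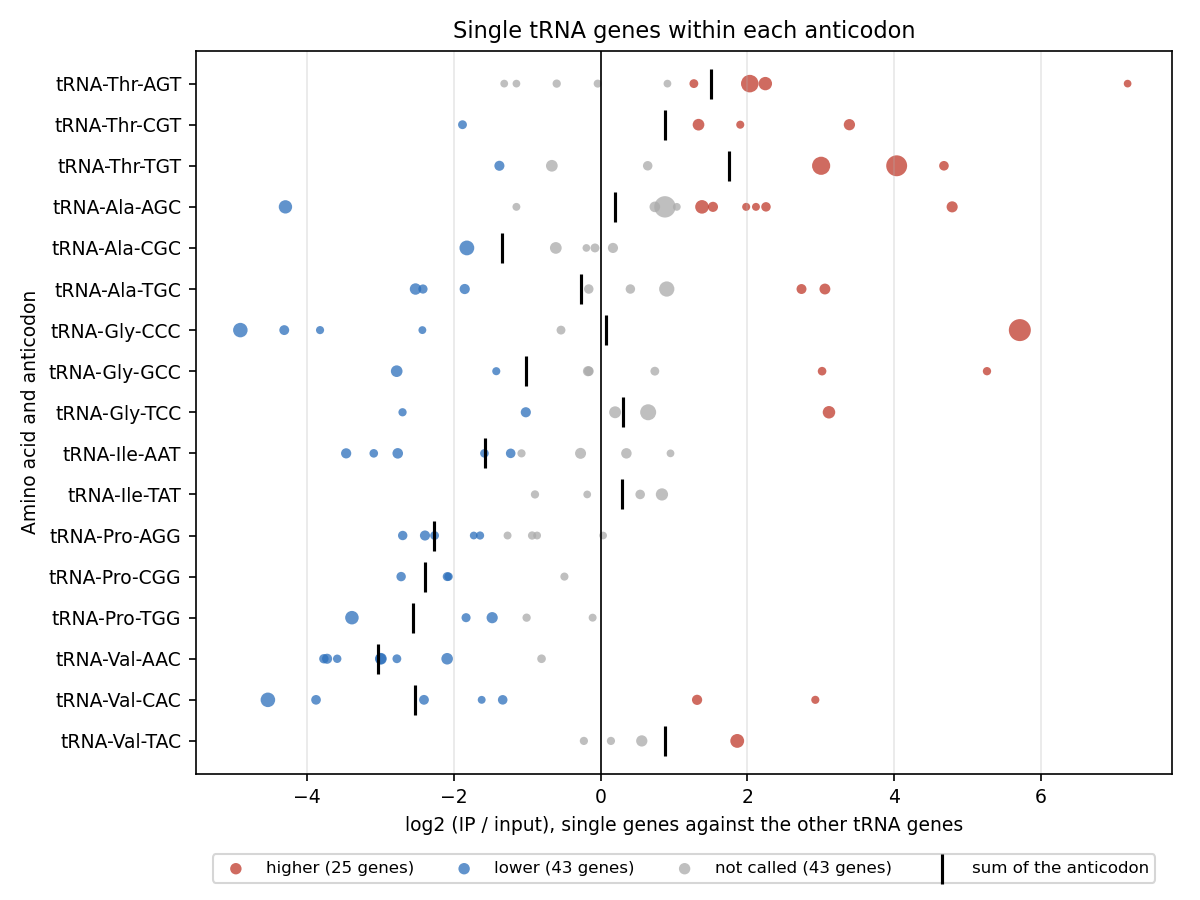
Log2 fold of IP over input relative to the other tRNA genes for the 111 tested member genes, by anticodon. Point area grows with the reads summed over the 3 libraries, colours give the edgeR call, and black bars mark the fold of the anticodon's sum. The bars come from the fit of anticodon sums, which was scaled separately, so bars and points do not share exactly the same zero. In 8 of the 17 anticodons genes called higher and genes called lower stand side by side.

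The member gene with most reads was tRNA-Gly-CCC-2-2, counted 3082 times in IP replicate 1, 1793 times in IP replicate 2 and 57 times in the input. It held 93.8% and 94.0% of the tRNA-Gly-CCC reads in the IP libraries and 2.30% in the input. Its log2 fold relative to the other tRNA genes was 5.71 ± 0.84 (SE; edgeR adjusted p = 6.07e-10), with 5.69 and 5.63 in the single libraries, which was the highest among members with at least 10 reads in every library. tRNA-Gly-CCC-4-1 of the same anticodon was at the other end, with 58, 33 and 1685 reads. It held 68.1% of the tRNA-Gly-CCC reads in the input and 1.77% and 1.73% in the IP libraries, with a log2 fold of -4.91 ± 0.53 (edgeR adjusted p = 6.12e-16). The equal share of tRNA-Gly-CCC in all 3 libraries was thus made up of reads from different genes.

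Threonine genes made up much of the higher end. tRNA-Thr-TGT-2-1 had 2549 and 1681 reads in the IP libraries and 161 in the input, a log2 fold of 4.04 ± 0.74 (edgeR adjusted p = 5.82e-07). tRNA-Thr-TGT-4-1 had 2021, 903 and 217 reads, a log2 fold of 3.01 ± 0.65 (edgeR adjusted p = 2.26e-05). Together these genes supplied most of the tRNA-Thr-TGT reads of the IP libraries, at 47.0% and 54.2% for tRNA-Thr-TGT-2-1 and 37.3% and 29.1% for tRNA-Thr-TGT-4-1. In the input they held 12.6% and 17.0%. tRNA-Thr-TGT-1-1 was smaller in reads, with 226, 181 and 10, and had a log2 fold of 4.68 ± 0.67 (edgeR adjusted p = 1.72e-10). tRNA-Thr-CGT-2-1 had 493, 279 and 45 reads, a log2 fold of 3.39 ± 0.59 (edgeR adjusted p = 1.12e-07).

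tRNA-Thr-AGT-1-1, the inosine-forming threonine gene with most reads, had 1350, 1158 and 395 reads and a log2 fold of 2.03 ± 0.61 (edgeR adjusted p = 0.00231). It held 65.5% and 54.6% of the tRNA-Thr-AGT reads in the IP libraries and 49.1% in the input. Not every threonine gene was higher. tRNA-Thr-CGT-3-1 (61, 20 and 176 reads) and tRNA-Thr-TGT-6-1 (127, 73 and 320 reads), picked out after their values were seen, were called lower at log2 folds of -1.88 and -1.38.

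Alanine genes stood at both ends. tRNA-Ala-AGC-4-1 had the most reads, with 2030, 1412 and 1178, and a log2 fold of 0.88 ± 0.62 that was not called (edgeR adjusted p = 0.210). tRNA-Ala-AGC-3-1 had 358, 398 and 18 reads, a log2 fold of 4.79 ± 0.65 (edgeR adjusted p = 3.53e-11). tRNA-Ala-AGC-8-2 had 63, 43 and 1304 reads, a log2 fold of -4.29 ± 0.51 (edgeR adjusted p = 3.58e-14). It held 40.8% of the tRNA-Ala-AGC reads in the input and 1.59% and 1.43% in the IP libraries.

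Among members with at least 10 reads in every library, the others with the lowest folds were valine genes. tRNA-Val-CAC-4-1 had 83, 37 and 1672 reads, a log2 fold of -4.53 ± 0.52 (edgeR adjusted p = 9.67e-15), and held 59.0% of the tRNA-Val-CAC reads in the input against 11.2% and 12.8% in the IP libraries. tRNA-Val-CAC-1-1 had 30, 13 and 384 reads, a log2 fold of -3.88 ± 0.50 (edgeR adjusted p = 2.52e-12). tRNA-Val-AAC-5-1 had 28, 11 and 322 reads, a log2 fold of -3.77 ± 0.51 (edgeR adjusted p = 1.68e-11). For each of these genes both IP counts lay below the input count. Below that read limit, and picked out after their values were seen, tRNA-Gly-CCC-5-1 with 33, 5 and 437 reads (log2 fold -4.31) and tRNA-Gly-CCC-1-1 with 12, 0 and 101 reads were called lower too.

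**Figure D4:**
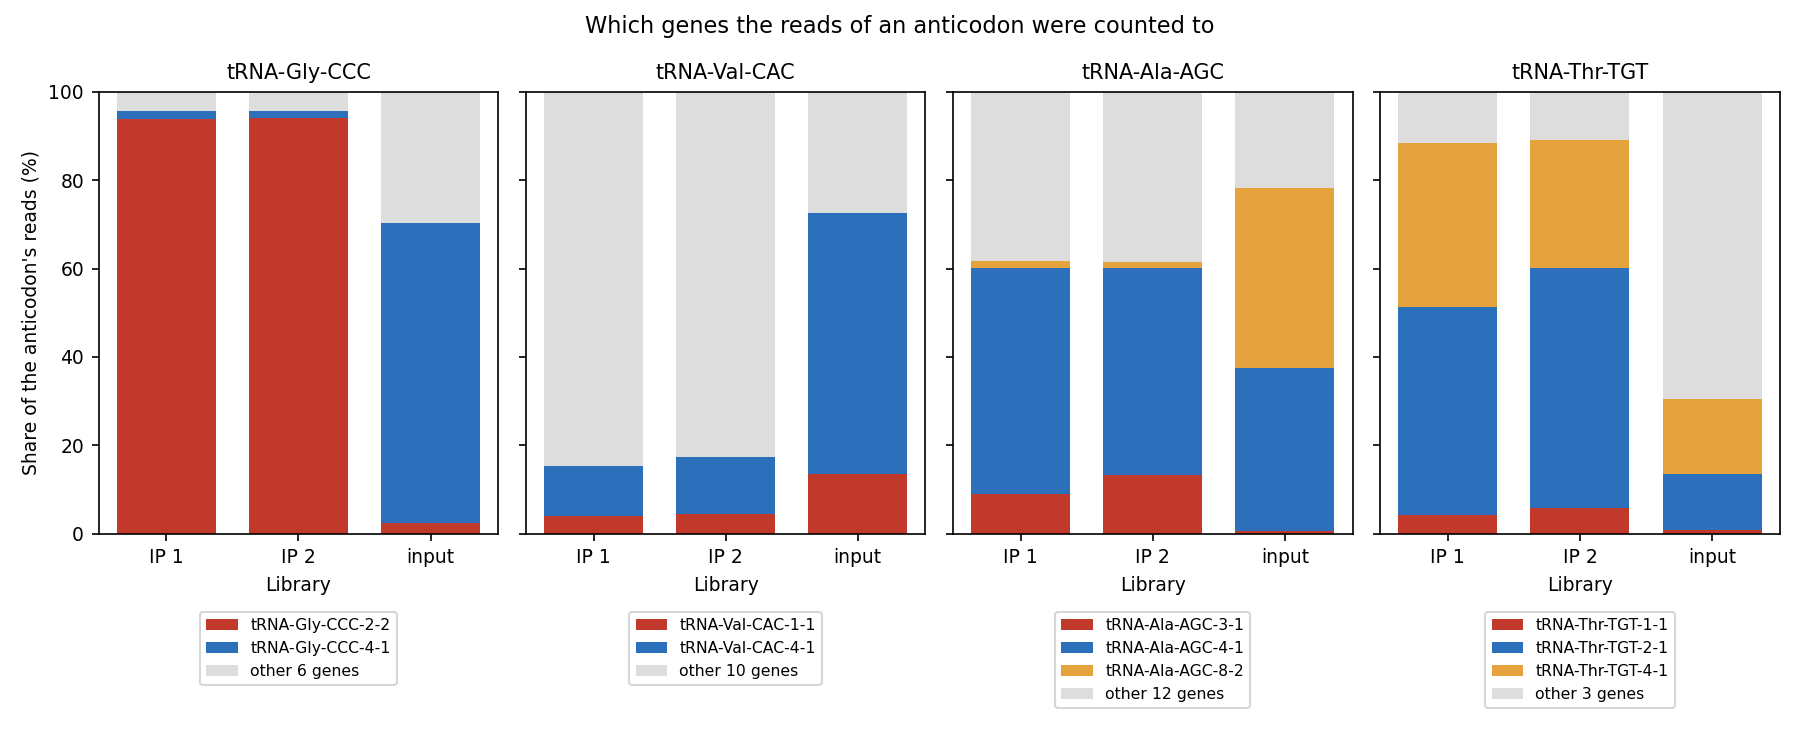
Share of each anticodon's reads (%) counted to its named genes in each of the 3 libraries, for tRNA-Gly-CCC, tRNA-Val-CAC, tRNA-Ala-AGC and tRNA-Thr-TGT, with grey for the remaining genes. The IP bars resemble each other in each panel, and in tRNA-Gly-CCC 1 gene fills 93.8% and 94.0% of the IP bars and 2.30% of the input bar.

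The IP reads were concentrated in fewer genes than the input reads. The 5 member genes with most reads over all libraries, which are tRNA-Gly-CCC-2-2, tRNA-Ala-AGC-4-1, tRNA-Thr-TGT-2-1, tRNA-Thr-TGT-4-1 and tRNA-Thr-AGT-1-1, held 40.1% and 40.4% of the member reads in the IP libraries and 7.05% in the input. The 5 leading genes of the input held 25.3% of its member reads.

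Within an anticodon, the distance between the highest and the lowest log2 fold of its tested genes had a median of 5.27, and of 4.42 without the 3 tested members that had under 10 input reads. With or without these 3, in 8 of the 17 anticodons at least 1 gene was called higher and at least 1 lower. These were found for alanine, glycine, threonine and valine. Over all 308 tested tRNA genes 30.5% were called higher and 32.5% lower. How many anticodons of other amino acids held both calls was not counted. The counts in this paragraph therefore say nothing about members against other tRNA genes. All called genes of proline and isoleucine were lower: 5 of 9 tested tRNA-Pro-AGG genes, 3 of 4 tRNA-Pro-CGG genes, 3 of 5 tRNA-Pro-TGG genes and 5 of 9 tRNA-Ile-AAT genes. No tRNA-Ile-TAT gene was called. For tRNA-Val-AAC, 7 of 8 tested genes were called lower, at log2 folds from -3.77 to -2.09, and tRNA-Val-AAC-1-1 was not called at -0.80.

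Copies that share an isodecoder number also differed. Among 16 isodecoders with at least 2 tested copies, 11 had copies more than 2 log2 units apart, with a median distance of 2.87, the same without tested members under 10 input reads. tRNA-Gly-CCC-2-2 had a log2 fold of 5.71 and its copy tRNA-Gly-CCC-2-1, with 66, 67 and 126 reads, had -0.54. tRNA-Ala-AGC-8-1, with 273, 200 and 179 reads, had 0.74, and its copy tRNA-Ala-AGC-8-2 had -4.29. In the isodecoder tRNA-Gly-GCC-2 the copies ran from -2.78 (tRNA-Gly-GCC-2-3, with 113, 63 and 741 reads) to 3.02 (tRNA-Gly-GCC-2-4, with 132, 59 and 14 reads), leaving aside tRNA-Gly-GCC-2-5, which passed the read filter through the IP libraries alone. The valine gene tRNA-Val-CAC-1-4, with 314, 134 and 107 reads, was called higher at 1.32, and its copy tRNA-Val-CAC-1-1 lower at -3.88. tRNA-Val-CAC-1-4 held 42.5% and 46.2% of the tRNA-Val-CAC reads in the IP libraries and 3.77% in the input. At the other extreme, the copies of tRNA-Ala-AGC-2 lay 0.14 apart and those of tRNA-Pro-CGG-1 0.65 apart. Reads that match several copies could have been split, assigned to 1 copy or dropped, and the treatment is not given in the sources used here, so that the part of it in differences between copies was not tested.

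Because single genes carried so many reads, each anticodon was also tested without the gene that had most reads in it, an alternative added after the values had been seen. These leading genes were taken out of all anticodons at once, those of other amino acids included. The other tRNAs that serve as reference therefore changed as well, and the part of this in the changes below was not tested. tRNA-Thr-TGT and tRNA-Thr-AGT still rose relative to the other tRNAs, by 1.67 and 1.94 (edgeR adjusted p = 0.00100 and 0.000162), and tRNA-Val-AAC still fell, at -2.22 (edgeR adjusted p = 3.37e-07). tRNA-Pro-AGG and tRNA-Ile-AAT remained lower, at -1.34 and -1.13 (edgeR adjusted p = 0.0223 and 0.00263). The fall of tRNA-Val-CAC, whose leading gene was tRNA-Val-CAC-4-1, went from -2.53 to -0.67 and was no longer called (edgeR adjusted p = 0.106). Set against exonic RNA it went from -2.18 to -1.08 and kept its call (edgeR adjusted p = 0.0102). tRNA-Pro-TGG at -0.94 and tRNA-Pro-CGG at -1.29 lost their calls as well (edgeR adjusted p = 0.0763 and 0.102), and tRNA-Ala-CGC turned to 0.16 (edgeR adjusted p = 0.688). Both proline anticodons kept their calls against exonic RNA, going from -2.05 to -1.23 and from -2.02 to -1.69. tRNA-Gly-GCC, whose leading gene was tRNA-Gly-GCC-2-3, changed sign without a call, from -1.01 to 0.76 relative to the other tRNAs (edgeR adjusted p = 0.102). Against exonic RNA it went from -0.62 to 0.39.

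Without tRNA-Gly-CCC-2-2, the 203, 114 and 2417 remaining reads of tRNA-Gly-CCC gave a log2 fold of -3.18 (edgeR adjusted p = 1.23e-09), where the whole sum had 0.08. With all leading genes out, tRNA-Gly-TCC went from 0.30 to 1.01 (edgeR adjusted p = 0.0104) and tRNA-Thr-CGT from 0.87 to 1.50 (edgeR adjusted p = 0.00752). The same removal did not raise their folds against exonic RNA. These went from 0.70 to 0.64 (edgeR adjusted p = 0.178) and from 1.36 to 1.19 (edgeR adjusted p = 0.0212). Against exonic RNA, 8 of the 9 called anticodons kept their call without their leading gene, and tRNA-Val-TAC at 0.48 did not (edgeR adjusted p = 0.245).

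The 32 members that were not tested held few reads, namely 99 and 45 in the IP libraries and 133 in the input. They included the anticodon names nmt-tRNA-Val-TAC and tRNA-Ile-GAT, each with 1 read in IP replicate 1 and 0 in the other libraries, and tRNA-Ala-GGC. The lone tRNA-Ala-GGC gene, tRNA-Ala-GGC-chr19-3, had 13 reads in IP replicate 1 and 0 in both other libraries, which as a share of tRNA reads is at least 3.38-fold higher than the input's floor of 3 reads. The value was seen in 1 IP library only.

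Another 3 members passed the read filter through the IP libraries alone, so a higher call was the only one open to them. tRNA-Thr-AGT-4-1 had 19, 14 and 0 reads, and its share of tRNA reads was at least 4.95-fold and 6.74-fold higher than the floor of 3 input reads. tRNA-Gly-GCC-2-5 had 121, 25 and 2 reads, a ratio of shares of 47.2 (95% counting interval 12.8 to 395) and 18.1 (4.50 to 157). tRNA-Val-CAC-2-1 had 78, 27 and 8 reads. All 3 were called higher and stand among the 25.

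The authors' deposited peak lists, made for each IP library against the input, held 31 peaks at 19 member genes in IP replicate 1 and 27 peaks at 16 of them in IP replicate 2. With a -log10 p of at least 3 and a log2 fold of at least 3, there were 4 such peaks at 3 genes and 8 at 4 genes in the authors' deposited tables. The authors' lists held 123298 and 62411 peaks in all, and the share of these above the same minimums is not given here. Their list of 1587 reproducible peaks overlapped 3 member genes, which were tRNA-Thr-AGT-1-1, tRNA-Thr-AGT-1-3 and tRNA-Gly-GCC-2-4. Every peak assigned to a tRNA in these lists, 133 and 117 of them, also carried the name of another gene. A member without a peak may therefore lie where the lists name no tRNA, and the absence of a peak says nothing about it.

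Coordinates of these peaks are those of build hg19, counted from 1, and each lies at the tRNA gene that the annotation names. At tRNA-Thr-AGT-1-1 on the plus strand of chromosome 17, the authors' deposited table of IP replicate 2 lists peaks from 8090515 to 8090554 with log2 folds from 4.17 to 4.92. In IP replicate 1 the authors' deposited table gives 3.26 for the first 2 bases of this stretch and 2.06 to 2.15 for the rest. At tRNA-Thr-AGT-1-3 on the plus strand of chromosome 19, from 33667999 to 33668038, the log2 fold in the authors' deposited tables was 4.68 in IP replicate 2, and in IP replicate 1 it was 2.38 and 1.73 in 2 pieces. At tRNA-Gly-GCC-2-4 on the minus strand of chromosome 16, from 70812930 to 70813015, it was 4.62 in IP replicate 2 and 3.73 and 3.86 in IP replicate 1. This glycine gene had 132, 59 and 14 counted reads and the log2 fold 3.02, and tRNA-Thr-AGT-1-3 had 491, 748 and 180 reads and the log2 fold 2.25, relative to the other tRNA genes.

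Outside the reproducible list, the peaks above these minimums were at tRNA-Gly-CCC-7-1, an untested gene, in IP replicate 1 (log2 fold 3.33 in the authors' deposited table) and at tRNA-Ala-AGC-2-1 in IP replicate 2 (4.35). The latter had 0.91 to 1.12 in the 3 pieces listed for IP replicate 1 in the authors' deposited table.

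Transcripts of genes that act on these tRNAs were planned for the fit with single tRNA genes, which called no feature. They are given here from the fit with tRNAs summed by anticodon, a change made after that outcome was known. Of 12 synthetases for the 6 amino acids, all tested, 1 was called higher and 0 lower, shares below those of 14.0% higher and 11.4% lower over all 10441 features of that fit. Their median log2 fold was 0.26 against -0.06 over all features. The alanyl-tRNA synthetase mRNA AARS1 had 862, 223 and 295 exonic reads and rose by 0.98 ± 0.26 (SE; edgeR adjusted p = 0.00768), at 0.95 and 1.01 in the single IP libraries. The next by p were VARS1 for valine at -0.60, EPRS1, which charges glutamate and proline, at 0.59, and PARS2, the mitochondrial prolyl enzyme, at 1.39, and none passed the test (edgeR adjusted p = 0.128, 0.134 and 0.168). Besides EPRS1, TARS1 for cytosolic threonine was not called either, at 0.46 (edgeR adjusted p = 0.239).

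Of 22 tRNA maturation and modification genes, 21 were matched and tested, and 2 were called higher and 2 lower. These counts lie near the 14.0% higher and 11.4% lower over all features, and the median log2 fold was -0.25. ADAT2, the catalytic subunit of the inosine-forming deaminase, had 104, 18 and 228 exonic reads and fell by 1.88 on the log2 scale (edgeR adjusted p = 0.000112), with -1.70 and -2.20 in the single IP libraries. TSEN15, of the endonuclease that removes tRNA introns, had 84, 12 and 107 reads and fell by 1.16 (edgeR adjusted p = 0.0189), with -0.92 and -1.68. TRMT5, a guanosine methyltransferase, had 201, 49 and 63 reads and rose by 1.07, and TRMT6, of an adenosine methyltransferase, had 228, 48 and 75 reads and rose by 0.92 (edgeR adjusted p = 0.0175 and 0.0336).

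The mitochondrially encoded tRNAs of the same amino acids were higher, those of proline and valine included, whose nuclear sums fell. All 5 that were tested were called higher, where 14.0% of all features in that fit were, with a median log2 fold of 4.71. Each was higher in both IP libraries, with the lowest log2 folds for MT-TV, at 2.29 in IP replicate 1 and 2.65 in IP replicate 2. MT-TP, the mitochondrial proline tRNA, had 4766, 1443 and 226 reads and rose by 3.95 ± 0.47, and MT-TV, for valine, had 845, 270 and 113 reads and rose by 2.49 ± 0.29 (edgeR adjusted p = 6.60e-06 and 6.33e-06). MT-TT, for threonine, had 1912, 1040 and 77 reads, and MT-TG, for glycine, had 761, 471 and 33. They rose by 4.71 ± 0.51 and 4.71 ± 0.50 (edgeR adjusted p = 3.34e-06 and 2.18e-06). MT-TI for isoleucine, the remaining one, rose by 4.73 ± 0.57, and MT-TA for alanine had 0, 0 and 1 reads. Mitochondrial tRNAs are cut from long transcripts that also hold mRNAs, and whether counting used strand is not given in the sources used here, so reads of a tRNA and of an opposite or uncut transcript cannot be told apart.

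None of these mRNA or mitochondrial tRNA calls was present in the fit with single tRNA genes, in which no feature was called and 3165 of 10700 had an unadjusted p under 0.05 (edgeR).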

How the data were processed

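DDX6 eCLIP of MOLM-13 cells gave 2 IP libraries and 1 input. The tools named, per the submitters' processing notes, are cutadapt, SAMtools, STAR and UMI-tools, and the build is hg19. What counted the reads, which annotation and peak caller served, and how strand and reads matching several tRNA copies were treated is not given in the sources used here. Raw counts were deposited by the authors per identifier and region, with tRNA reads in a column of their own. Their deposited peak lists give each peak a -log10 p, which reaches 400, and a log2 fold of IP over input.

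tRNA reads were taken per gene and summed by anticodon and by amino acid. These rows were fitted together with exonic reads of all genes, and anticodon sums and single tRNA genes were also fitted alone. A row entered the fit when 2 or more libraries gave it at least 10 reads. The test was edgeR's (4.0.16, in R 4.3.3) quasi-likelihood F-test with TMM factors, and a Benjamini-Hochberg adjusted p under 0.05 made a call. With 1 residual degree of freedom, the spread came from the IP libraries and was shared across rows, with prior degrees of freedom of 3.00 for single genes, 19.8 for anticodons, 26.2 for amino acids and 5.77 for anticodons alone. For single tRNA genes alone they were infinite. The coefficient of variation was 20.7%, 17.7%, 17.1%, 26.2% and 27.5% in the same order. Log2 folds per library used a prior count of 2, and a gene with 0 input reads was set against a floor of 3 reads. DESeq2 1.42.0, other scalings, filters, a robust prior and leaving out libraries were alternatives. Scripts were tested on simulated data.

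The planned fit of single genes against exonic RNA made no call, so the fit of tRNA genes alone was added. For the same reason the pathway genes, planned for that fit of single genes, were taken from the anticodon fit. Named genes were the 5 members with most reads, the 5 highest and the 5 lowest by log2 fold of the members reaching 10 reads in every library, members with 0 input reads and at least 10 in 1 IP library, and up to 4 genes per pathway list with the smallest p. The fold rule was applied to the fit of tRNA genes alone. The members, the lists and the tests were chosen with earlier results of these data known. RefSeq names served only for matching, and no tRNA sequence is printed.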

Additional observations from a re-analysis of the deposited data

How the results depend on the processing

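Relative to the other tRNAs, every call on the 17 member anticodons was the same with DESeq2, scaling to total tRNA reads, a robust prior, other read filters and names without the prefix nmt-, and the median log2 fold of the members went from -0.27 to 0.13 with no filter beyond 1 read. Without the leading gene of each anticodon, 4 were called higher and 4 lower, the median was 0.16, tRNA-Ala-CGC turned to 0.16 and tRNA-Gly-CCC to -3.18 (-3.53 against exonic RNA). tRNA-Gly-GCC, not called with or without its leading gene, turned from -1.01 to 0.76. For single genes relative to the other tRNA genes, scaling to total tRNA reads gave 15 higher calls in place of 25 and a median of -0.85 in place of -0.60, DESeq2 a median of -0.39 and a minimum of 30 reads one of -0.36. Without 1 IP library it ranged from -0.59 to -0.58. Against exonic RNA the calls depended on the processing, and the cause was not tested. All counts of calls in this section, those given above included, show the dependence on processing alone. The share of all features called also changed with the setting and is not given for most of them. These counts therefore say nothing about members against other features. Single genes, with no call in the planned fit, had 52 higher and 27 lower calls with scaling to library size alone (median 0.78 in place of -0.51), 14 and 23 with DESeq2, 41 and 34 with introns included, 27 and 42 with no filter beyond 1 read, 13 and 27 with at least 30 reads, 14 and 37 with at least 10 input reads, 9 and 31 with a robust prior, and 13 and 25 summed by isodecoder. Anticodons, with 4 higher and 5 lower calls, had 9 higher with scaling to library size (median 1.48), 1 and 1 with DESeq2, 8 higher with introns included, 1 higher with at least 30 reads, 0 higher and 3 lower with at least 10 input reads, and 2 and 2 with a robust prior. Amino acids, with 1 higher and 2 lower calls, had 3 and 0 with scaling to library size (median 1.18), 0 and 0 with DESeq2 and with at least 10 input reads, 2 and 1 with introns included, 0 and 1 with at least 30 reads, and 1 lower with a robust prior. Leaving out 1 IP library leaves no residual degree of freedom, so it gave values with no test: the members' median against exonic RNA ranged from -0.55 (without IP replicate 2) to 0.71 (without IP replicate 1) over anticodons and from -1.17 to 0.12 over genes. In the authors' deposited list of IP replicate 1, a log2 fold of at least 1 gave 11 peaks at members in place of 4. No paired analysis was possible because the single input carries no replicate number. The lone input limits every comparison, and 3 tested members had under 10 reads in it.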
